A study of Mus musculus with 9 samples.

Results

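The alpha and beta tubulin isotypes described here are 10 of the 55487 genes in the count table of a mouse RNA-seq study: 7 beta tubulins (Tubb5, Tubb4b, Tubb6, Tubb2a, Tubb2b, Tubb3 and Tubb4a) and 3 alpha tubulins (Tuba1b, Tuba1a and Tuba1c). They were taken by gene symbol from a list drawn up when results from these libraries were already known: the family was chosen by the levels of Tubb4a in KD and OE against WT. Tubb4a is therefore described with its values and no test, while the other 9 genes keep p-values adjusted over all genes tested. All 10 genes passed the filter on low counts and were among the 16955 genes tested.

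The libraries were made from poly-A RNA of the mouse cardiac endothelial cell line MCEC. There were 3 groups of 3 libraries each: WT, knockdown of Zbtb46 (KD) and overexpression of Zbtb46 (OE). Zbtb46 is a BTB zinc-finger transcription factor of dendritic and endothelial cells. The labels give the groups no other genotype, agent or time, and do not state how knockdown or overexpression was achieved or whether the cells were clones. No library from cells with an empty vector was analysed here. Nothing states that replicates came from separate cultures, so p-values measure only the spread between these libraries, which may be technical.

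Microtubules are polymers of dimers that pair 1 alpha with 1 beta tubulin. Each kind is encoded by several genes, the isotypes, whose proteins are almost alike over the body of the molecule and differ mainly in the acidic tail that projects from the microtubule surface. Tubb5, Tubb4b and Tuba1b are made in most tissues, Tubb6 is widespread outside the nervous system, and Tubb3, Tubb2a, Tubb2b, Tuba1a and Tubb4a are best known from neurons and, for Tubb4a, from oligodendrocytes. Cells also adjust tubulin mRNA by autoregulation: when free dimers are in excess, the factor Ttc5 binds the first residues of tubulin chains as they leave the ribosome, and the mRNA being translated is degraded.

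The end of the coding sequence, which encodes the tail, shows how the beta isotypes can be told apart. The last 72 coding bases, stop codon included, are given 5′ to 3′ from the GENCODE M21 transcripts on GRCm38, in lower case, with capitals where a base differs from the broadly expressed isotype Tubb4b, or has no counterpart in it.
Tubb4b: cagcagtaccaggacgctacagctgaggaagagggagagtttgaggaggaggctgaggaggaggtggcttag
Tubb4a: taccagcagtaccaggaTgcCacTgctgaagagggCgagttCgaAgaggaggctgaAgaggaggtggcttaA
Tubb5: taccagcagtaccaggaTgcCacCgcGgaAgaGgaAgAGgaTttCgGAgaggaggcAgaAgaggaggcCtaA
Tubb2a: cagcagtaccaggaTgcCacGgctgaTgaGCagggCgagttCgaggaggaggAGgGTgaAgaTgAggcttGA
Tubb2b: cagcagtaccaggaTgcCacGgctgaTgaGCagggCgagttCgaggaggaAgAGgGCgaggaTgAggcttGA
Tubb3: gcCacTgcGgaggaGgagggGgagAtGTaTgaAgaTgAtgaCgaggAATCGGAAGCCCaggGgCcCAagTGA

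Over these 72 bases Tubb4a had 8 bases in capitals, the fewest of the 5 beta genes compared with Tubb4b, and Tubb3 had 32. Tubb5, Tubb2a and Tubb2b had 17 each. Bases of Tubb4b that are absent from the other gene are neither marked nor counted here. The coding sequences of Tubb4a and Tubb5 have 1335 bases each and that of Tubb4b 1338. Over the whole coding sequence the 2 class IV genes, Tubb4a and Tubb4b, were 83.2% identical. Tubb2a and Tubb2b, the class II pair, were 96.5% identical with 47 differing alignment columns. Tuba1a and Tuba1b were 98.3% identical, Tuba1b and Tuba1c 97.9%, and Tuba1a and Tuba1c 97.1%. Across the 24 pairs within a family identity ran from 80.2% to 98.3% with a median of 83.6%, and across the 21 alpha with beta pairs from 53.9% to 55.9%.

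The start of the coding sequence is shown because autoregulation reads the peptide it encodes. The first 12 coding bases are given with the start codon in lower case and the next 3 codons in capitals.
Tubb4a: atgCGGGAAATC
Tubb5: atgAGGGAAATC
Tubb4b: atgAGGGAGATC
Tubb2a: atgCGCGAGATC
Tubb2b: atgCGAGAGATC
Tuba1b: atgCGTGAGTGC
The 12 bases of Tubb3 were the same as those of Tubb4b, and the 12 bases of Tuba1a and Tuba1c were the same as those of Tuba1b.

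Reads of 150 bases could be assigned to Tubb4a, Tubb5, Tubb3 and Tubb6 along their whole transcripts, since 0% of the 150-base windows of these transcripts occurred in a transcript of another annotated gene. The shared part was 27.9% of the windows for Tubb2a and 20.1% for Tubb2b, both shared chiefly between the 2 genes. It was 16.8% for Tubb4b, shared with the pseudogene Tubb4b-ps1. The alpha genes shared far more: 54.7% of the windows of Tuba1a, 57.9% of Tuba1b and 46.7% of Tuba1c occurred elsewhere, each in 10 other genes. How reads that match several genes were counted is not given in the sources used here, so levels of the alpha genes and of Tubb2a, Tubb2b and Tubb4b are less certain than those of Tubb4a, Tubb5, Tubb3 and Tubb6. Near-identical copies may have split or lost reads.

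**Figure D1:**
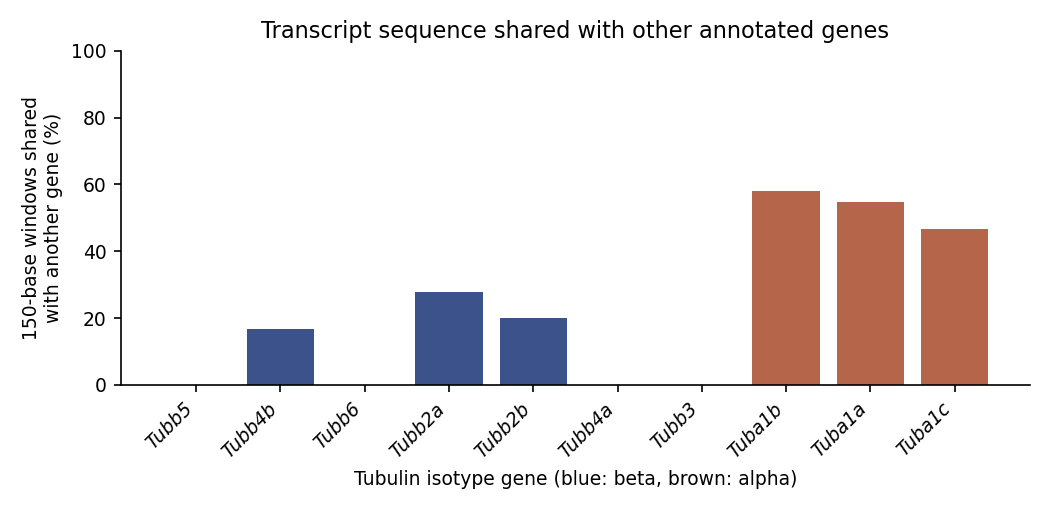
Share of the 150-base windows of each member's longest coding transcript (vertical axis, percent) that also occur in a transcript of another annotated gene, for 7 beta (blue) and 3 alpha genes (brown). Bars for Tubb5, Tubb6, Tubb4a and Tubb3 are at 0%, and Tuba1b is the highest at 57.9%.

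On GRCm38, Tubb4a (ENSMUSG00000062591) lies on the minus strand of chromosome 17 from 57080066 to 57087782, and Tubb5 (ENSMUSG00000001525) lies on the minus strand of the same chromosome from 35833921 to 35838306. Tubb4b (ENSMUSG00000036752) lies on chromosome 2, minus strand, from 25222160 to 25224702. The class II pair sits side by side on the minus strand of chromosome 13, Tubb2a (ENSMUSG00000058672) from 34074274 to 34078007 and Tubb2b (ENSMUSG00000045136) from 34126748 to 34130466. Tubb3 (ENSMUSG00000062380) lies on the plus strand of chromosome 8 from 123411424 to 123422015. The alpha genes form a cluster on chromosome 15: Tuba1b (ENSMUSG00000023004) on the minus strand from 98931425 to 98934565, Tuba1a (ENSMUSG00000072235) on the minus strand from 98949837 to 98953703 and Tuba1c (ENSMUSG00000043091) on the plus strand from 99029891 to 99038110. The annotated genes that overlap a member and are in the table held few counts: Gm49450 over Tuba1a and Tuba1b had 0 in every library, Gm41396 opposite Tuba1b had 2 to 12, and Fam166a opposite Tubb4b had 0 to 4. Gm20388, which is annotated over Tubb3 on the same strand, was not analysed here.

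Library totals ran from 39491828 to 55745849 counts. Levels are in CPM, counts scaled to a common library size with TMM factors. The targeted gene, Zbtb46, averaged 13.65 ± 0.62 CPM (SD, n = 3) in the WT libraries, 11.24 ± 0.54 CPM in the KD libraries and 191.4 ± 2.67 CPM in the OE libraries, and no groups overlapped. It was 17.8% lower in KD than in WT (log2 fold change -0.28, SE 0.05, adjusted p = 0.001437) and 13.99-fold higher in OE (log2 3.81, SE 0.04, adjusted p = 3.222e-21; edgeR quasi-likelihood F test, Benjamini-Hochberg). Of 12 endothelial markers, 5 averaged at least 1 CPM in WT and KD and 4 in OE. Erg had 0 counts in every library, Emcn and Cldn5 at most 2, Cdh5 at most 7 and Pecam1 at most 10, so several defining markers of the labelled cell type were at or near 0. The summed endothelial level ran from 146.3 to 159.3 CPM in WT, from 123.4 to 130.7 in KD and from 106.9 to 117.1 in OE, most of it from Eng. Means of Eng, Egfl7 and Tek had that order, highest in WT and lowest in OE. Flt1 did not, at 17.21 CPM in WT, 12.09 in KD and 21.87 in OE, nor did Kdr, at 2.64, 1.40 and 1.77 CPM. Of 6 fibroblast markers, 3 averaged at least 1 CPM in each group. Lum had at most 2 counts in any library, Postn at most 12 and Col1a2 at most 38. Dcn averaged 98.03 CPM in WT, 97.82 in KD and 36.73 in OE, and Pdgfra 17.08, 14.59 and 13.42 CPM. Summed fibroblast markers ran from 5110 to 5676 CPM in WT, from 4848 to 4912 in KD and from 4039 to 4133 in OE, almost all of it from Col1a1. The part of these markers in the tubulin results was not tested.

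Tubb5 was the main tubulin mRNA of these cells. To compare genes with each other, counts were divided by the length of the gene's annotated exons, and each gene's share of the summed value of the 10 genes was taken. In WT, Tubb5 held 42.89% ± 0.63 (SD, n = 3) of the total. Tubb4b followed with 14.21% ± 0.28 and Tuba1b with 13.82% ± 0.72, and these neighbours in the order overlapped between libraries. Below them came Tuba1a with 7.70% ± 0.17, Tubb6 with 6.79% ± 0.43, Tuba1c with 6.04% ± 0.12, Tubb2a with 4.13% ± 0.18, Tubb2b with 2.75% ± 0.06, Tubb4a with 1.36% ± 0.10 and Tubb3 with 0.317% ± 0.051. The other neighbours in the WT order did not overlap, although several steps were small.

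The order was much the same in KD and OE except for the place of Tubb4a. Tubb4a was in place 9 of 10 in WT, in place 10 in KD with 0.0440% ± 0.016 of the total and in place 7 in OE with 4.17% ± 0.06. In KD it thus stood below Tubb3, which held 0.365% ± 0.087 there. In OE it stood above Tubb2a at 3.61% ± 0.08, Tubb2b at 2.73% ± 0.11 and Tubb3 at 0.257% ± 0.010. The places of the other genes moved only among close neighbours: Tuba1b and Tubb4b changed places in KD, and Tuba1c and Tubb6 in OE.

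Shares depend on the length by which counts are divided. The alpha genes together held 27.56% ± 0.52 of the total in WT, 27.40% ± 0.40 in KD and 27.73% ± 0.38 in OE, so the alpha share differed between groups by less than the spread of the libraries. With the number of unshared windows as the length, an alternative added after the shared windows had been counted, the alpha share came to 40.68% in WT, 40.47% in KD and, in OE, 40.99%. On that scale Tuba1b held 22.04% and Tubb5 32.57% of the WT total, and Tubb4a stood in place 8 in OE. Other lengths lowered the alpha share: with the longest coding transcript it was 24.6% in the WT libraries, and with raw counts 20.69%, where Tubb5 held 55.08%. On each of the 4 scales the WT, KD and OE values of the alpha share lay within 1 percentage point of each other.

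**Figure D2:**
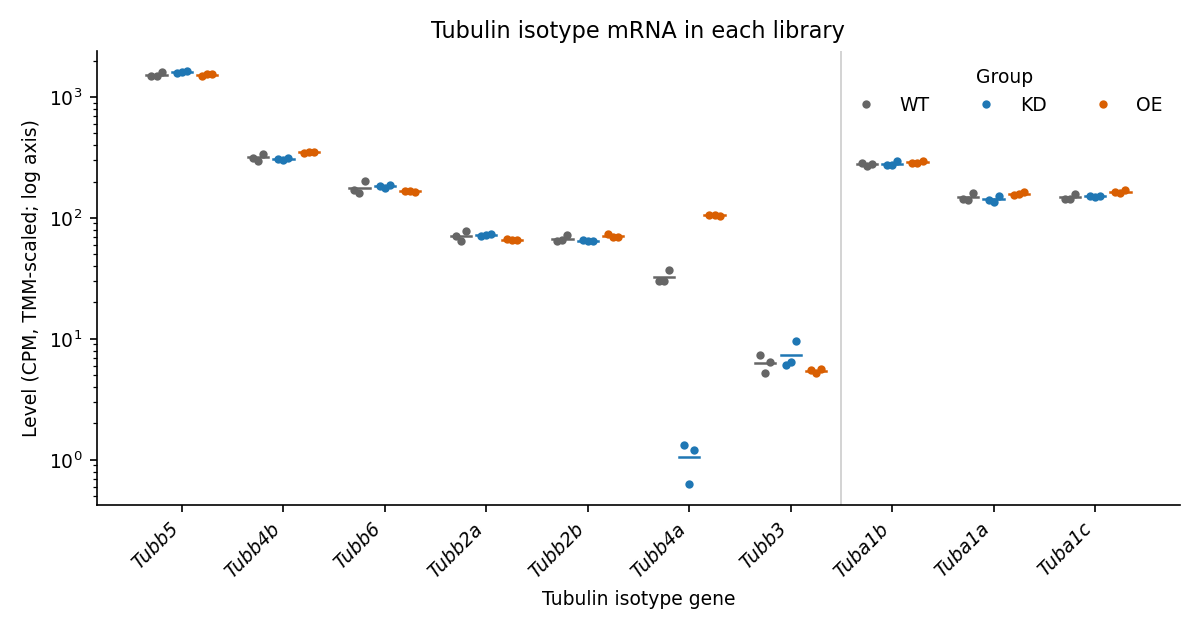
Level of each tubulin gene in each library (points; CPM on a log axis) with the group mean (line), for WT (grey), KD (blue) and OE (orange), beta genes to the left and alpha genes to the right of the vertical line. Tubb4a runs from 0.628 CPM in a KD library to 105.9 CPM in an OE library, while the groups of every other gene lie close together.

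Tubb4a, the class IV beta isotype known from brain, had the largest differences between groups in the set, which was chosen by those differences. Its level was 30.11, 30.00 and 37.05 CPM in the 3 WT libraries, 1.33, 0.628 and 1.21 CPM in the KD libraries and 104.9, 105.9 and 104.4 CPM in the OE libraries. Every KD library was below and every OE library above every WT library, with a wide gap between the groups. The counts behind these values were 1142 to 1785 in WT, only 25 to 67 in KD and 4698 to 5246 in OE, and the KD libraries had the largest relative spread, a coefficient of variation of 35.6% against 12.5% in WT and 0.731% in OE.

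The mean of Tubb4a fell from 32.39 CPM in WT to 1.06 CPM in KD, 29.8-fold lower (log2 fold change -4.90, SE 0.34). It was 105.1 CPM in OE, 3.25-fold higher than in WT (log2 1.70, SE 0.10) and 96.8-fold higher than in KD (log2 6.60, SE 0.32). These differences chose the gene and are given without a test. By size of the log2 difference Tubb4a was in place 64 of the 16955 genes in KD against WT and in place 414 in OE against WT. Without any single library the log2 difference ran from -5.09 to -4.67 in KD and from 1.64 to 1.80 in OE.

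The direction of Tubb4a followed that of Zbtb46 in both lines, but the sizes differed. Zbtb46 was 17.8% lower in KD, where Tubb4a was 96.7% lower. In OE, Zbtb46 was 13.99-fold higher and Tubb4a 3.25-fold higher. Both comparisons use the same WT libraries.

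Within beta tubulin, Tubb4a took 1.78%, 1.82% and 2.01% of the mRNA per length in the WT libraries, 0.0774%, 0.0362% and 0.0682% in KD and 5.83%, 5.79% and 5.71% in OE. The means were 1.87% ± 0.12, 0.0606% ± 0.022 and 5.77% ± 0.06. Tubb4a was thus a minor beta tubulin mRNA in every group, and in OE it held the fourth largest share, after Tubb5, Tubb4b and Tubb6. Dividing by the longest coding transcript in place of all annotated exons gave 1.497% in WT and 4.65% in OE, with the same places among the beta genes. With unshared windows as the length it was 1.397% in WT and 4.34% in OE, and Tubb4a was in place 5 of the beta genes in OE, below Tubb2a.

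**Figure D3:**
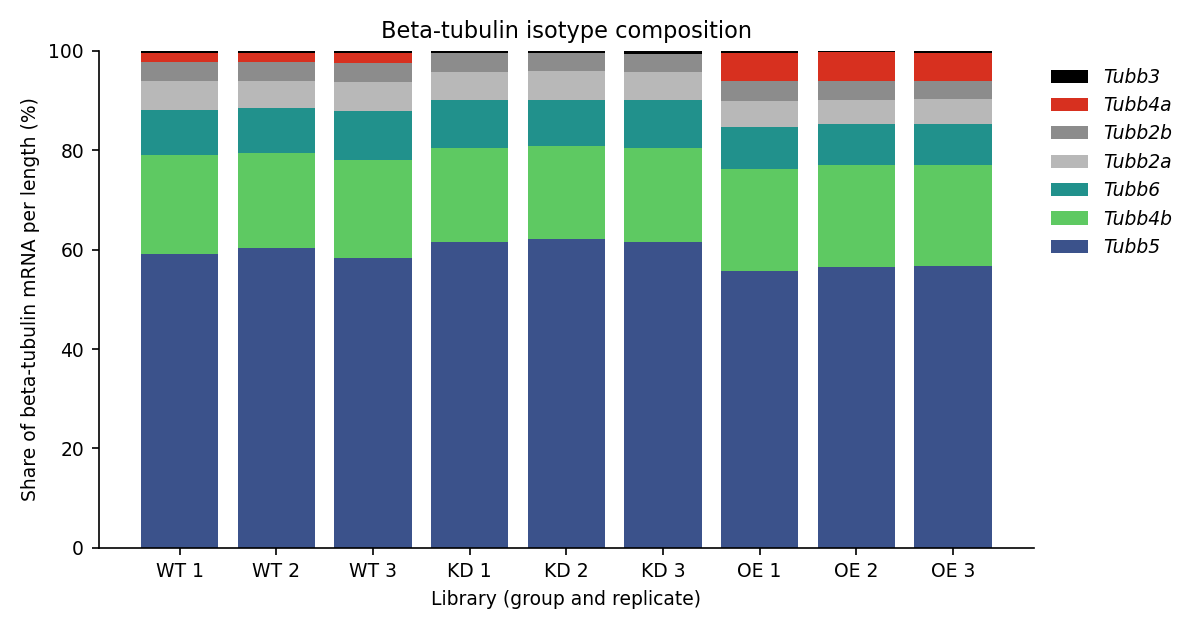
Stacked shares of beta-tubulin mRNA per exon length (percent, vertical axis from 0 to 100) in each of the 9 libraries. The Tubb4a band (red) is 1.78% to 2.01% in WT, too thin to see in KD at 0.0362% to 0.0774%, and 5.71% to 5.83% in OE, while Tubb5 (blue, at the base) takes 55.68% to 62.07% of every library.

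Because Tubb4a is known from oligodendrocytes and neurons, markers of those cells were read beside it. Of 9 oligodendrocyte markers, Mag, Mobp, Olig1 and Olig2 had 3 counts or fewer in every library. The sum of the list, mostly Mbp, ran from 134.4 to 145.6 CPM in WT and from 159.7 to 167.0 in KD. In OE it ran from 98.8 to 105.2 CPM, so the order was opposite to that of Tubb4a. Cnp, from the same list, did not follow that order. Its mean was lowest for KD at 18.05 CPM, beside 23.73 CPM for WT and 22.78 CPM for OE. Of 12 neuronal markers, 8 had 3 counts or fewer in every library, among them Rbfox3, Snap25, Dcx and Stmn2, and the sum ran from 1.90 to 2.72 CPM in WT, from 1.29 to 2.05 in KD and from 2.51 to 3.998 in the OE libraries. The neuronal sum thus rose from KD through WT to OE, the same order as Tubb4a, although neighbouring groups overlapped. Its largest part was Syt1, with a mean of 0.79 CPM for KD, 1.52 CPM for WT and 2.53 CPM for OE. Syp and Elavl3, from the same list, were lowest in OE, with means of 0.111 and 0.105 CPM. Their means were 0.162 and 0.218 CPM for WT and 0.134 and 0.176 CPM for KD. Snap91 was lowest in WT at 0.254 CPM, beside 0.429 CPM for KD and 0.460 CPM for OE. The part of these cell types in the Tubb4a values was not tested. In bulk samples, fewer cells with an mRNA and less of it per cell cannot be told apart.

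The other 9 tubulin genes differed little between the groups. In KD against WT, 0 of the 9 passed the test (edgeR quasi-likelihood, Benjamini-Hochberg), where 21.3% of all genes tested were called. The libraries separated for 0 of the 9, beside 34.7% of all genes. Of the 9, 0 had an unadjusted p under 0.05, and DESeq2 and limma-voom also called 0. A fit of only the WT and KD libraries called 0 of the 9 and 17.7% of all genes. Their log2 differences ran from -0.059 to 0.23, with a median size of 0.047 beside 0.162 over all genes. WT replicate 3 had the highest WT value for 7 of the 9 genes. Without it 2 were called in KD, Tubb5 (log2 0.11, adjusted p = 0.007387) and Tubb6 (log2 0.14, adjusted p = 0.01067).

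In OE against WT, 2 of the 9 rose, Tubb4b and Tuba1c. Of all genes 36.4% were called in this comparison, 17.0% higher and 19.5% lower. The libraries of these 2 genes did not overlap, beside 45.1% of all genes in either direction and 21.7% higher in OE. The median size of the 9 differences was 0.10, beside 0.22 over all genes. A fit of only the WT and OE libraries called 1 of the 9, Tuba1c, and 32.5% of all genes.

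Between OE and KD, 5 of the 9 were called, Tubb4b, Tubb2b, Tuba1a and Tuba1c higher and Tubb3 lower in OE. Of all genes 41.5% were called here, 19.4% higher and 22.1% lower. The libraries of 8 of the 9 did not overlap, all but Tuba1b, beside 55.4% of all genes. Of these 8, 4 were higher in OE, beside 27.2% of all genes, and 4 were lower, beside 28.2%. The median size was 0.132, beside 0.252 over all genes. A fit of only the KD and OE libraries called 8 of the 9 and 48.0% of all genes. With library totals in place of TMM factors, the comparison of OE with WT had 0 calls among the 9 and that of OE with KD had 1, Tubb3. That scaling also changed the split over all genes, from 1859 higher and 1758 lower to 885 and 1588 in KD, and from 2874 and 3300 to 1623 and 3506 in OE.

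**Figure D4:**
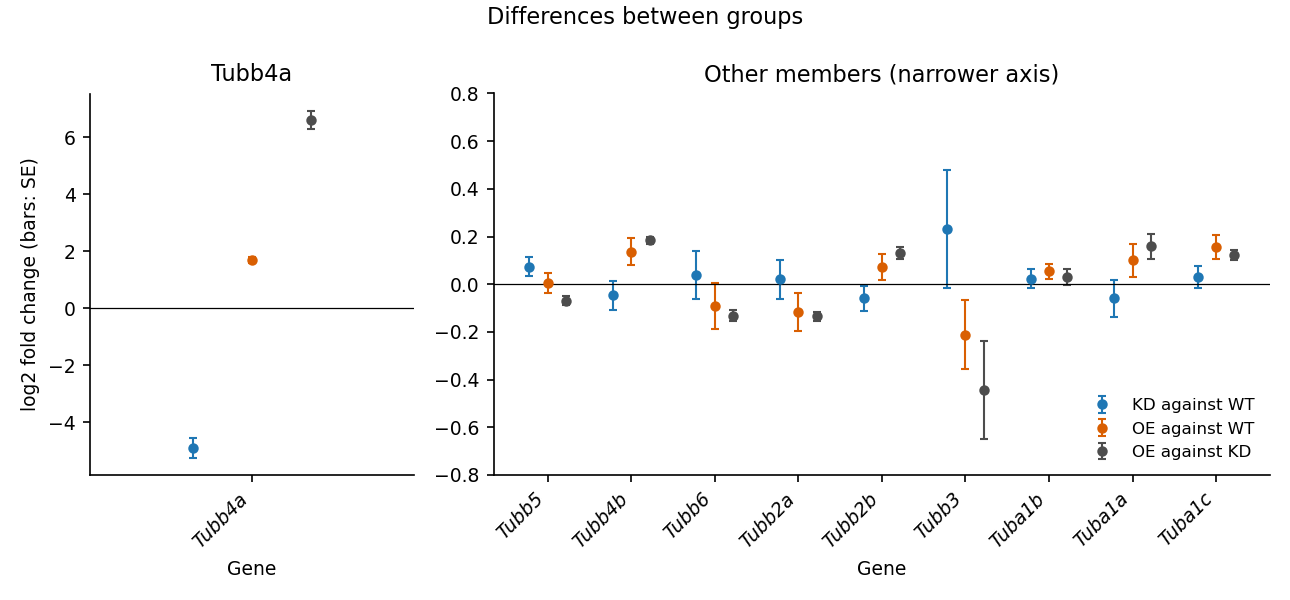
Log2 fold change for Tubb4a (left) and the other 9 genes (right, on a narrower axis). Colours give KD against WT (blue), OE against WT (orange) and OE against KD (grey). Bars are standard errors from the SDs of log2 CPM, not from the fit. Tubb4a lies at -4.90, 1.70 and 6.60, and the other genes lie between -0.44 and 0.23.

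Among the broadly expressed beta genes, Tubb5 was at 1487, 1482 and 1607 CPM in WT, 1579, 1607 and 1628 CPM in KD and 1497, 1545 and 1547 CPM in OE. The KD libraries were above those of OE, the WT libraries overlapped both, and none of the 3 comparisons passed the test (adjusted p = 0.2083 in KD, 0.9507 in OE and 0.1708 between them). With the median of the surrounding 20-Mb window removed, Tubb5 was called higher in KD than in WT (log2 0.13, adjusted p = 0.01615) and lower in OE than in KD (log2 -0.10, adjusted p = 0.02518). A fit of only the KD and OE libraries also called Tubb5 lower in OE (log2 -0.077, adjusted p = 0.003668). Its share of beta tubulin averaged 59.21% ± 1.03 in WT, 61.70% ± 0.32 in KD and, in OE, 56.28% ± 0.53. Shares must sum to 100%, so a larger Tubb4a share lowers the others. Of the beta tubulins without Tubb4a, Tubb5 held 60.34% ± 1.01 in WT, 61.74% ± 0.30 in KD and 59.73% ± 0.53 in OE, and the OE and WT libraries overlapped.

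Tubb4b, the other class IV gene, which is made in most cells and is abundant in cilia, was at 315.8, 296.1 and 340.3 CPM in WT, 304.6, 304.0 and 313.0 CPM in KD and 347.2, 349.3 and 350.2 CPM in OE. The OE libraries were above all others. It was 9.95% higher in OE than in WT (log2 0.14, SE 0.06, adjusted p = 0.02046) and 13.6% higher than in KD (log2 0.18, SE 0.01, adjusted p = 0.00219). The call against WT was lost with library totals (log2 0.077, adjusted p = 0.4061), with only the 2 groups in the fit (adjusted p = 0.07017), and without WT replicate 2 (log2 0.081, adjusted p = 0.1143) or any 1 OE library (adjusted p 0.05597 to 0.06323). Among the beta tubulins without Tubb4a its share averaged 19.99% ± 0.39 in WT, 18.84% ± 0.10 in KD and, in OE, 21.71% ± 0.12, with no overlap between the groups.

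The class IV genes together reached 349.8 ± 25.9 CPM in WT, 308.3 ± 5.21 in KD and 454.0 ± 1.65 in OE. Per length, Tubb4a was 8.71% ± 0.53 of the class IV mRNA in WT, 0.321% ± 0.113 in KD and 22.01% ± 0.15 in OE. Tubb4b therefore made up most of class IV in every group, and nearly all of it in KD.

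Tubb6, a widely expressed isotype whose protein destabilises microtubules when it is abundant, was at 168.8, 161.6 and 201.5 CPM in WT, 182.9, 176.8 and 187.0 CPM in KD and 167.2, 166.7 and 165.0 CPM in OE. The WT libraries spanned both other groups. Neither comparison with WT passed the test (adjusted p = 0.7283 in KD and 0.2783 in OE), nor did OE against KD (log2 -0.13, adjusted p = 0.1028), although those libraries did not overlap. The same test in a fit of only the KD and OE libraries called Tubb6 lower in OE (log2 -0.14, adjusted p = 8.278e-05). That fit called 48.0% of all genes.

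The class II pair, near-identical genes known from brain, moved little and in different ways. Tubb2a was at 71.2, 64.5 and 78.0 CPM in WT, 70.7, 72.4 and 73.5 CPM in KD and 66.6, 65.1 and 65.4 CPM in OE. Its OE level was 7.68% below WT (log2 -0.12, SE 0.08, adjusted p = 0.1257) and 8.95% below KD (log2 -0.14, adjusted p = 0.0636). Neither passed the threshold. With the median of the surrounding 20-Mb window removed, both did, at -0.28 against WT (adjusted p = 0.003654) and -0.29 against KD (adjusted p = 0.002027). A fit of only the KD and OE libraries also called Tubb2a lower in OE (log2 -0.14, adjusted p = 0.001546).

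Tubb2b was at 64.6, 65.4 and 72.3 CPM in WT, 65.3, 65.0 and 63.9 CPM in KD and 73.2, 69.5 and 69.9 CPM in OE. It was 9.50% higher in OE than in KD (log2 0.13, SE 0.03, adjusted p = 0.04461), a call that ended when any single KD or OE library was left out (adjusted p 0.06615 to 0.1744), and the log2 difference turned to -0.024 once the median of the surrounding 20 Mb was removed. That 20-Mb window of chromosome 13, which holds both class II genes and 139 tested genes, had a median of 0.165 in OE against WT. Per length, Tubb2a was 60.04% ± 1.40 of class II in WT, 61.37% ± 0.72 in KD and 56.93% ± 0.39 in OE, with the OE libraries below all others.

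Tubb3, the beta isotype used as a marker of neurons, was the least abundant member in WT and OE. It was at 7.33, 5.23 and 6.42 CPM in WT, 6.12, 6.43 and 9.57 CPM in KD and 5.48, 5.19 and 5.62 CPM in OE, from 253 to 467 counts. A single KD library, replicate 3, was well above all others. Tubb3 was 26.5% lower in OE than in KD (log2 -0.44, SE 0.21, adjusted p = 0.03346), and without KD replicate 3 the difference was -0.21 with an adjusted p of 0.3155. The call was also lost without any single OE library (adjusted p 0.06628 to 0.1075), with limma-voom (adjusted p = 0.05394) and with upper-quartile factors (adjusted p = 0.06474). The 20-Mb window of chromosome 8 around Tubb3, with 105 tested genes, had a median of -0.437 in OE against WT, and with window medians removed Tubb3 was at 0.064 in OE against KD and at 0.23 in OE against WT. Neither comparison of Tubb3 with WT passed the test (adjusted p = 0.3518 in KD and 0.3475 in OE).

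Among the alpha genes, Tuba1b, the most widely expressed, was at 285.3, 267.2 and 277.7 CPM in WT, 274.9, 275.5 and 293.0 CPM in KD and 283.5, 285.4 and 293.2 CPM in OE. The groups overlapped in all 3 comparisons and none passed the test (adjusted p = 0.768 in KD, 0.3366 in OE and 0.5878 between them). Its log2 differences ran from 0.023 to 0.054.

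Tuba1a, the alpha isotype of developing neurons, was at 144.3, 139.8 and 161.4 CPM in WT, 140.7, 136.1 and 150.9 CPM in KD and 155.4, 157.0 and 165.1 CPM in OE. The OE libraries were above the KD libraries and overlapped those of WT. It was 11.6% higher in OE than in KD (log2 0.16, SE 0.05, adjusted p = 0.02067). That call was lost with library totals (adjusted p = 0.1445), with window medians removed (log2 0.084, adjusted p = 0.2232), and without KD replicate 1 or 2 or OE replicate 3 (adjusted p 0.09831 to 0.1391).

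Tuba1c, a less abundant alpha isotype of many tissues, was at 142.2, 143.9 and 157.1 CPM in WT, 151.5, 149.7 and 151.6 CPM in KD and 163.0, 161.5 and 168.9 CPM in OE. The OE libraries were above those of WT and KD. It was 11.3% higher in OE than in WT (log2 0.16, SE 0.05, adjusted p = 0.008441), and this call held without any single library but not with library totals (log2 0.092, adjusted p = 0.3298). It was 8.96% higher in OE than in KD (log2 0.12, SE 0.02, adjusted p = 0.02851), a call lost in 5 of the 6 fits without 1 KD or OE library (adjusted p 0.06191 to 0.1155) and with window medians removed (log2 0.048).

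Total tubulin mRNA was nearly level across the groups. The 10 genes summed to 2771 ± 149 CPM in WT, 2814 ± 50.5 in KD and 2903 ± 36.4 in OE. Libraries of WT, from 2656 to 2939 CPM, spanned those of KD, from 2777 to 2871, and overlapped those of OE, from 2863 to 2935. The 3 alpha genes summed to 573.0 ± 22.7 CPM in WT, 574.6 ± 18.3 in KD and 611.0 ± 14.1 in OE. Their OE libraries, from 601.8 to 627.2 CPM, were all above those of WT, at most 596.3, and of KD, at most 595.5. Per length, the WT libraries had an alpha to beta ratio of 0.381 ± 0.010, the KD libraries 0.377 ± 0.008 and the OE libraries 0.384 ± 0.007. The beta genes without Tubb4a summed to 2165 ± 123 CPM in WT, 2238 ± 33.7 in KD and 2187 ± 26.3 in OE, and the WT libraries spanned both. For this sum every KD library, from 2208 to 2275 CPM, was above every OE library, from 2157 to 2203. The difference in Tubb4a between groups, from 1.06 to 105.1 CPM, was smaller than the range of this sum over the WT libraries, from 2075 to 2306 CPM.

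Of the other tubulin genes, 5 of 10 were tested. Against WT, 1 of the 5 was called in KD and 1 in OE, beside 21.3% and 36.4% of all genes. Tuba4a, an alpha isotype outside the set, was at 41.9 ± 2.63 CPM in WT, 44.6 ± 0.54 in KD and 45.8 ± 0.96 in OE and passed no test against WT (adjusted p = 0.2982 and 0.08041). Tubg1, the main gamma tubulin of the centrosome, was 10.4% lower in KD (log2 -0.16, SE 0.06, adjusted p = 0.03078), the only call of the 5 in KD, and was not called with library totals. Tube1, the epsilon tubulin of centrioles, was 38.3% higher in OE (log2 0.47, SE 0.09, adjusted p = 0.0006046), the only call of the 5 in OE. The other 5, Tuba3a, Tuba3b, Tuba8, Tubal3 and Tubb1, had at most 6 counts in any library.

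Of 22 genes for prefoldin, the CCT chaperonin and the tubulin cofactors, 4 rose and 1 fell in KD, and 10 rose and 3 fell in OE. Over all genes 11.0% rose and 10.4% fell in KD, and 17.0% rose and 19.5% fell in OE. Cct6a, a CCT subunit, was 21.2% higher in OE (log2 0.28, SE 0.06, adjusted p = 5.313e-05), and Pdcl3, a helper of the chaperonin, was 13.0% higher in KD (log2 0.18, SE 0.03, adjusted p = 0.01073). All 8 CCT subunit genes were among the 10 that rose in OE, by 0.10 to 0.28 on the log2 scale, a group singled out after its values were seen. With library totals the list had 1 fall in KD as its only call, and 1 rise and 3 falls in OE, where 1 of the 8 CCT genes was called. Tbca, which binds beta tubulin during folding, was also named after its values were seen: it was lower in OE (log2 -0.33, adjusted p = 0.0001625).

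Of 10 genes of tubulin mRNA autoregulation, 1 was called in KD, where it fell, beside 21.3% of all genes. In OE against WT 1 rose and 2 fell, beside 36.4% of all genes called, and between OE and KD 3 were higher and 2 lower in OE, beside 41.5%. Ttc5 itself was at 14.8 ± 0.66 CPM in WT, 14.0 ± 0.16 in KD and 14.5 ± 0.91 in OE and passed neither test against WT (adjusted p = 0.5377 and 0.8665). Cnot3, a subunit of the deadenylase complex that degrades the mRNA, was 12.9% lower in KD (log2 -0.20, SE 0.06, adjusted p = 0.006515). Cnot1, its scaffold, was 23.1% higher in OE (log2 0.30, SE 0.07, adjusted p = 6.678e-05). Scaper, the adaptor between Ttc5 and that complex, was lower in OE (log2 -0.42, adjusted p = 0.002135) and, like Ttc5, was named after its values were seen.

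Of 18 genes tested from a list of 24 enzymes and partners that modify tubulin, 2 rose and 4 fell in KD, beside 11.0% of all genes higher and 10.4% lower. In OE 2 rose and 6 fell, beside 17.0% and 19.5%. With library totals there were 4 falls and no rise in KD, and 1 rise and 7 falls in OE. Agbl5, a carboxypeptidase that trims glutamates from the tail, was 28.7% lower in KD (log2 -0.49, SE 0.03, adjusted p = 4.216e-05) and 17.8% higher in OE (log2 0.24, SE 0.03, adjusted p = 0.01075). Agtpbp1, another deglutamylase, was 39.0% lower in OE (log2 -0.71, SE 0.09, adjusted p = 1.854e-08). Vash1 and Vash2, which remove the last tyrosine of alpha tubulin, and their partner Svbp were singled out after their values were seen. All 3 fell in KD, by 0.955, 0.561 and 0.436 on the log2 scale (adjusted p = 0.001226, 4.62e-05 and 0.003175). In OE, Vash1 fell by 1.79 and Vash2 by 0.462, while Svbp rose by 0.46 (adjusted p = 6.539e-07, 0.0001392 and 0.0007161).

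Of 35 genes tested from a list of 40 for microtubule-associated proteins, 10 rose and 7 fell in KD and 9 rose and 11 fell in OE, beside 11.0% higher and 10.4% lower of all genes in KD and 17.0% and 19.5% in OE. With library totals these were 6 and 7 in KD and 5 and 10 in OE. Map6, a stabiliser of microtubules, was at 56.8 ± 1.66 CPM in WT and 88.6 ± 1.65 in KD (log2 0.64, SE 0.03, adjusted p = 4.132e-09) and 10.6% lower in OE (log2 -0.16, SE 0.03, adjusted p = 0.01069). Clip2, which binds growing ends, was 42.6% lower in OE (log2 -0.80, SE 0.08, adjusted p = 1.528e-08) and 17.6% lower in KD (log2 -0.28, SE 0.06, adjusted p = 0.006133). Of 15 other cytoskeletal genes, among them actins, tropomyosins and lamins, 3 rose and 3 fell in KD, beside the same 11.0% and 10.4%, and 11 fell in OE, beside 19.5% of all genes. Cfl1, which severs actin filaments, was 27.1% lower in KD (log2 -0.46, SE 0.05, adjusted p = 1.481e-07), and Tpm1, a tropomyosin, was 36.4% lower in OE (log2 -0.65, SE 0.03, adjusted p = 1.294e-11) and 28.9% higher in KD (log2 0.37, SE 0.02, adjusted p = 3.172e-07). The median size of change of these 15 genes in OE was 0.258, beside 0.22 over all genes and 0.10 for the 9 tubulins.

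**Figure D5:**
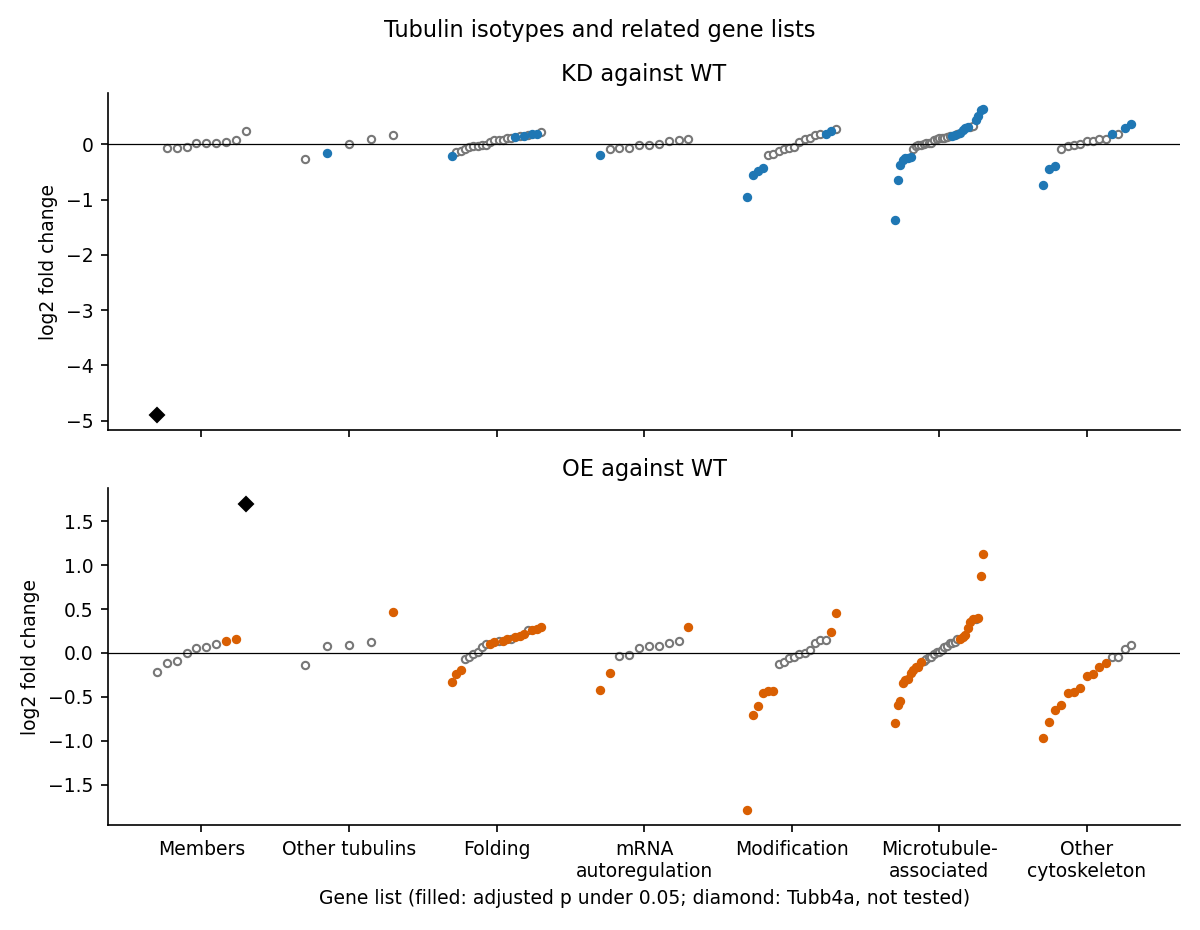
Log2 fold change of each tested gene in KD against WT (top) and OE against WT (bottom), by gene list; filled points have an adjusted p under 0.05 and the diamond is Tubb4a, which was not tested. Tubb4a stands at -4.90 and 1.70, the other tubulin members lie near 0, and the lists of modifying enzymes, microtubule-associated proteins and other cytoskeletal genes spread more widely.

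Candidates were 9972 genes that reached 5 CPM on average in some group, without predicted-gene names (Gm and digits, or ending in Rik). The genes whose pattern was most like that of Tubb4a were found among them by Pearson correlation of log2 CPM over the 9 libraries. They were Ntn1 (r = 0.998), Adgrg1 (0.997), Gas6 (0.997), Marcksl1 (0.996) and Car12 (0.996). The 9 points fall into the 3 groups, so r mostly describes the order and relative spacing of the group means and carries no p. Ntn1, which encodes the guidance factor netrin 1, was at 6.58 ± 0.82 CPM in WT, 0.0269 ± 0.023 in KD and 21.3 ± 1.08 in OE. Gas6, a ligand of TAM receptors, was at 12.2 ± 0.72, 1.06 ± 0.12 and 22.01 ± 0.66 CPM in WT, KD and OE. Of the other tubulins, the highest correlation with Tubb4a was that of Tubb4b (r = 0.733) and the lowest that of Tubb5 (r = -0.64).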

How the data were processed

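Poly-A RNA from 9 MCEC libraries (3 WT, 3 KD, 3 OE) was sequenced as paired 150-base reads. The authors deposited 1 table of unnormalized read counts, 1 row per Ensembl gene. The build is GRCm38 (mm10) per the submitters' processing notes. The aligner, counter, use of strand and annotation are not given in the sources used here. Of 55774 rows, 455 repeated 168 identifiers, which left 55487 genes. Every value column matched 1 sample.

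The gene set and lists were chosen with earlier results of these data known. Genes kept by filterByExpr (16955) were scaled with TMM and fitted over all 9 libraries with group as the only term in edgeR 4.0.16 (R 4.3.3; robust quasi-likelihood test). The Benjamini-Hochberg method adjusted p-values across every gene tested, with a threshold of 0.05. Standard errors come from SDs of log2 CPM (prior count 2), not from the fit that gave the log2 fold changes and p-values. An exact permutation test of 3 against 3 libraries has 0.1 as its smallest two-sided p, and shares are given as mean and SD. Exon lengths and coding sequences come from GENCODE M21. Named genes are the 10 members, the gene with the smallest p in each list in KD and in OE, and the 5 candidates most correlated with Tubb4a. Those candidates exclude predicted-gene names. Others were named after their values were seen. Alternatives were other scalings and filters, DESeq2 1.42.0, limma-voom (limma 3.58.1), a fit of only the groups compared, a replicate block, a minimum fold change of 1.5, removal of 20-Mb window medians, each library left out, and other lengths for shares. The procedure was tested on simulated counts, where the share of false calls was above the threshold and many changes of genes at low counts were missed. Python 3.11.15 with pandas 2.3.3, numpy 2.4.6, Biopython 1.88 and matplotlib 3.10.9 was used.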

Additional observations from a re-analysis of the deposited data

How the results depend on the processing

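Tubb4a kept its direction in all 3 comparisons under every alternative run. Calls of the other tubulins are small differences and depend on the scaling and on single libraries, with 3 libraries a group. With a minimum fold change of 1.5, 274 genes were called in KD, 794 in OE and 1331 between them, in place of 3617, 6174 and 7030, and 0 of the 9 tubulins in OE against WT or against KD. In KD, 1 was called with window medians removed, and 0 to 2 without 1 library (genes 2537 to 4699). In OE against WT, where 2 were called, 0 were called with library totals, 1 with only the groups compared, 3 with window medians removed (Tubb2a, Tubb4b and Tuba1c) and 1 to 3 without 1 library. In OE against KD, where 5 were called, the count was 1 with library totals, 8 with only the groups compared, 3 with window medians removed and 1 to 8 without 1 library. The cause of these shifts was not tested.

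Signs turned as follows, on the log2 scale. In KD, library totals gave -0.015 for Tubb2a, -0.011 for Tuba1b and -0.005 for Tuba1c, and upper-quartile factors -0.01 for Tubb2a and -0.007 for Tuba1b. In OE against WT, library totals gave -0.057 for Tubb5 and -0.005 for Tuba1b, no filter -0.007 and only the groups compared -0.004 for Tubb5, and window medians removed -0.091 for Tubb2b and 0.231 for Tubb3. In OE against KD, window medians removed gave -0.024 for Tubb2b, 0.064 for Tubb3 and -0.044 for Tuba1b. Without 1 library the KD difference ran from -0.048 to 0.092 for Tubb2a, from -0.004 to 0.355 for Tubb3, from -0.095 to 0.008 for Tubb4b, from -0.024 to 0.144 for Tubb6, from -0.102 to 0.007 for Tuba1a and from -0.008 to 0.045 for Tuba1b, and the OE difference from -0.024 to 0.037 for Tubb5 and from -0.164 to 0.003 for Tubb6.

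The Tubb4a share of beta tubulin was 1.497% in WT and 4.65% in OE with the longest coding transcript, 1.47% and 4.585% with raw counts, and 1.40% and 4.34% with unshared windows as the length. With the replicate block the 9 tubulins had 0, 2 and 4 calls in KD, OE and OE against KD, and Tubb2b lost its call between OE and KD (adjusted p = 0.05779). Deviations of same-numbered libraries correlated between -0.042 and 0.049, so no pairing by number was seen. Correlations over all genes cannot show that the samples were unpaired.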

Other observations

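The processed copies Tubb4b-ps1 and Tubb4b-ps2 gave far fewer counts than Tubb4b. Tubb4b-ps1, with 496 to 835 counts, was still above the member Tubb3, with 253 to 467. Tubb4b-ps1 was at 15.6 ± 2.75 CPM in WT, 13.8 ± 1.19 in KD and 16.0 ± 0.69 in OE. Tubb4b-ps2 was at 7.34 ± 1.43, 5.20 ± 0.86 and 6.97 ± 0.38 CPM and was called lower in KD than in WT (log2 -0.49, adjusted p = 0.02015), where Tubb4b itself was not (adjusted p = 0.5276). Reads of these copies and of the parent gene may have been exchanged in counting.

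Of 15 tested neighbours within 200 kb of Tubb4a, 2 rose and 3 fell in KD, beside 21.3% of all genes called, and 4 rose and 3 fell in OE, beside 36.4%. Crb3, one of the neighbours, was at 0.497 ± 0.176 CPM in WT, 0.111 ± 0.057 in KD and 0.157 ± 0.031 in OE, and Slc25a23 was at 71.5 ± 9.09, 60.7 ± 1.71 and 44.8 ± 0.97 CPM. Dennd1c was listed at 0 in all 3 WT libraries and at 0.295 ± 0.0076 CPM in KD and 0.284 ± 0.163 in OE. These neighbours were named after their values were seen.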
